A study of Mus musculus with 16 samples.

Results

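Gene expression in the ventral midbrain of wildtype mice (vMB WT) was set against that in the prefrontal cortex of wildtype mice (PFC WT), which gives the normal regional difference on which the study's work on a Cdh2 mutation is laid. The comparison used 8 of the 16 RNA-seq libraries of the series, 4 of vMB WT and 4 of PFC WT, chosen by their labels alone, and no library of a mutant mouse. All 8 came from male C57BL/6JRcc mice aged 13 weeks of the F2 generation of the Cdh2 line that carried no mutant allele. The mice had been through behavioural tests and were perfused with fixative, after which 1 hemisphere was frozen and both regions were dissected out, so each library is total RNA from a piece of tissue with all of its cell types. The titles of numbers 1 and 2 carry the same code in both regions and those of numbers 3 and 4 do not, and the sources used here do not say whether libraries of the same number or code came from 1 mouse.

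The ventral midbrain holds the substantia nigra and the ventral tegmental area, whose neurons make dopamine and send it to the striatum and to the cortex, next to the red nucleus, GABA neurons, the serotonin neurons of the raphe and thick bundles of myelinated axons. The prefrontal cortex is a layered sheet of glutamatergic projection neurons and GABA interneurons that receives part of that dopamine. Projection neurons of the forebrain load vesicles with glutamate through VGLUT1, while those of the brainstem and thalamus mostly use VGLUT2. The regions also come from different parts of the neural tube, and adult neurons keep part of the transcription factor code that patterned them.

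The deposited value of a gene is a read count that the authors normalised with DESeq2, here called the normalised value. It is not simply a count over a single size factor per library, since only 62.1% to 64.4% of low values lay near whole multiples of a single read. What else enters it was not established, and how that bears on the regional difference was not tested. The normalised value was tested on the log2(value + 1) scale for the 14801 genes whose values averaged 10 or more across the 8 libraries. A gene is called higher or lower in vMB WT where limma gave a Benjamini-Hochberg adjusted p no greater than 0.05 with a fold of 1.3 or more. Each fold change is a log2 difference, vMB WT minus PFC WT, with its standard error, and it understates the change of genes that are near 0 in either region. For a single gene whose 4 and 4 values do not overlap, the exact permutation test over the 70 ways to divide the libraries gives its smallest two-sided p, 0.0286. Reads assigned to genes came to about 9280000 to 10760000 a library in vMB WT and 8410000 to 8910000 in PFC WT. This is a rough estimate from the value that a single read is worth.

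Of the 14801 genes, 3231 (21.8%) were higher in vMB WT and 3187 (21.5%) were lower, and the median of all genes stood at 0.01. Values of the 4 and 4 libraries did not overlap for 7359 genes (49.7%). At a fold of at least 4, 414 genes (2.80%) were higher and 359 (2.43%) were lower. A further test asked for evidence of likeness, and 2687 genes (18.2%) had a 95% interval of the fold wholly within 1.3 either way. Log2 values of vMB WT and PFC WT libraries correlated across genes at 0.872 to 0.909, against 0.978 to 0.980 among the vMB WT libraries and 0.974 to 0.979 among the PFC WT libraries. With every library scaled to the same sum, the median of all genes moved to 0.17 and the split became 4547 higher and 2320 lower among 14807 genes. Median ratio, upper quartile and quantile scaling gave 3190, 3394 and 3352 genes higher and 3217, 3032 and 3141 lower. The counts of listed genes that follow are to be read against the 21.8% and 21.5% over all genes. In all of these counts, fewer cells of a type and less RNA per cell cannot be told apart.

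**Figure D1:**
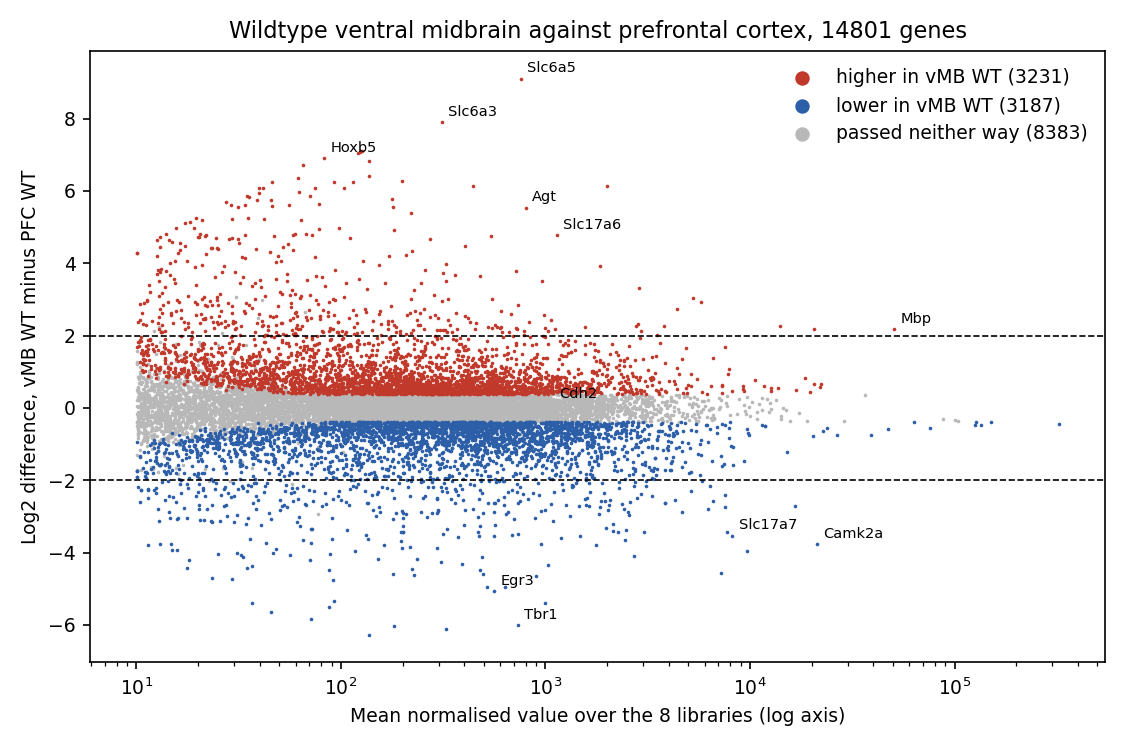
Difference between regions for every tested gene: the y axis is the log2 difference, vMB WT minus PFC WT, and the x axis is the mean normalised value over the 8 libraries on a log axis. Red points are the 3231 genes higher in vMB WT, blue points the 3187 lower, grey points the genes that passed neither way, and the dashed lines mark a fold of 4.

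Both labels were first checked against the genes that define the tissues. The dopamine transporter Slc6a3, which returns dopamine to the neuron that released it, read 799, 693, 459.6 and 523 in vMB WT libraries 1 to 4 and 1.11, 3.39, 3.48 and 0 in PFC WT libraries 1 to 4. Tbr1, a transcription factor of deep-layer corticothalamic neurons, read 24.2, 16.4, 63.6 and 7.8 in vMB WT and 1479, 1368, 1566 and 1360.1 in PFC WT. In both genes every library stood on the side of its label. The vMB WT libraries also held genes of tissue outside the midbrain, which are given with their values after the monoamine systems.

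Dopamine neuron genes were higher in vMB WT in 15 of the 21 listed products and lower in 5. Tyrosine hydroxylase (Th, ENSMUSG00000000214, chromosome 7, 142892752 to 142931128 on GRCm38), which makes the dopamine precursor L-DOPA, read 531, 523, 289 and 360.4 in vMB WT and 15, 23, 18.5 and 22.4 in PFC WT. Its values did not overlap between regions, and libraries 1 and 2 of vMB WT were the highest. The log2 difference was 4.34 ± 0.21 (adjusted p = 2.6e-08, limma). L-DOPA is turned into dopamine by Ddc, at 384, 580.5, 458 and 496 in vMB WT and 37.9, 31.9, 39.1 and 23.9 in PFC WT, a difference of 3.82 ± 0.17. The vesicular monoamine transporter Slc18a2 averaged 590.3 ± 112 in vMB WT and 43.5 ± 6.95 in PFC WT (SD, n = 4 each), a ratio of 13.6. Slc6a3 gave the steepest difference of the list, 7.90 ± 0.42 (adjusted p = 4.8e-08, limma).

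Other genes of the list were higher too. The same libraries also held genes of serotonin, noradrenaline and cholinergic neurons, given below. What part those neurons had in the differences of this list was not tested. Aldh1a1, an aldehyde dehydrogenase of the ventral tier of the nigra, averaged 1768 ± 121 in vMB WT and 162 ± 58.7 in PFC WT. The orphan transporter Slc10a4 and the nicotinic subunit Chrna6 differed by 6.25 ± 0.50 and 5.97 ± 0.49, from PFC WT means of 2.84 and 1.43. Dlk1, a secreted and membrane-bound relative of the Notch ligands, averaged 869 ± 150.1 in vMB WT and 14.1 ± 9.87 in PFC WT, and the GDNF receptor Ret averaged 776 ± 118 in vMB WT and 35.2 ± 11.4 in PFC WT. Gamma-synuclein (Sncg) read 537, 488, 464 and 603 in vMB WT and 13.3, 29.4, 16.2 and 22.4 in PFC WT.

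The 5 members that were lower are made in many cortical neurons too. The peptides cholecystokinin (Cck) and Vip differed by -3.21 ± 0.19 and -2.88 ± 0.29, the calcium buffer Calb1 by -0.95 ± 0.15, and the potassium channel Kcnj6 by -1.45 ± 0.15. Values of vMB WT lay wholly below those of PFC WT for each of these 4. Only the neurotensin receptor Ntsr1 passed neither way, at a mean of 76.3 in vMB WT and 76.5 in PFC WT. Over the 21 products the median log2 difference was 3.63, against 0.01 over all genes.

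Of 10 transcription factors that specify midbrain dopamine neurons 6 were tested, with 4 higher and 1 lower. A gene that is near 0 in PFC WT reaches the minimum only where it is high in vMB WT, so such a count says little, and without the minimum 8 of the 10 were higher and 1 lower. En1, needed to keep these neurons alive, read 116, 175, 107 and 93.9 in vMB WT and 0, 1.13, 1.16 and 0 in PFC WT, a difference of 6.36 ± 0.37 (adjusted p = 9.4e-08, limma). En2, Lmx1b and Otx2 differed by 4.53 ± 0.27, 4.79 ± 0.46 and 4.55 ± 0.44. En1 and Lmx1b also stand in the list of serotonin neurons, and Otx2 in that of the choroid plexus. Genes of both were high in vMB WT, and what part those cells had in these differences was not tested. Foxa1, Foxa2, Lmx1a and Pitx3 averaged 19.5, 10.9, 14.1 and 6.51 in vMB WT, too low for the test once the 8 libraries were averaged, and Foxa1 and Foxa2 were listed at 0 in every PFC WT library. Nr4a2, the orphan receptor that drives Th, averaged 126 ± 44.1 in vMB WT and 152 ± 29.1 in PFC WT and passed neither way, and cortex is known to make it as well. Sox6 was lower in vMB WT by -0.48 ± 0.16, with overlapping values, and lost its call without library 1 of vMB WT (-0.35) and without library 2 or 3 of PFC WT (-0.47 and -0.38). Nr4a2 was called lower only without library 3 of vMB WT, at -0.53.

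Of 21 factors of the other midbrain nuclei 19 were higher and 2 lower without the minimum on the mean, and 20 reached the minimum. Pou4f1, a factor of the red nucleus and the habenula, read 32, 81.3, 57.9 and 114 in vMB WT and 0, 0.788, 0 and 0 in PFC WT. Gata3, which also acts in serotonin neurons, differed by 5.87 ± 0.41. The Iroquois factors Irx1, Irx2, Irx3 and Irx5 averaged 143, 252, 184 and 82.7 in vMB WT, and Irx2 was listed between 0 and 1.74 in PFC WT. The developmental factor Lhx5 read 84.2, 90.2, 86.4 and 105 in vMB WT and 0, 0, 1.16 and 0 in PFC WT. Pou4f2 differed by 4.81 ± 0.54, and Gata2 by 1.15 ± 0.21. The exceptions were Zfpm1, a cofactor of the GATA proteins, at -1.47 ± 0.09, and Meis2 at -0.68 ± 0.10, both expressed in cortex.

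**Figure D2:**
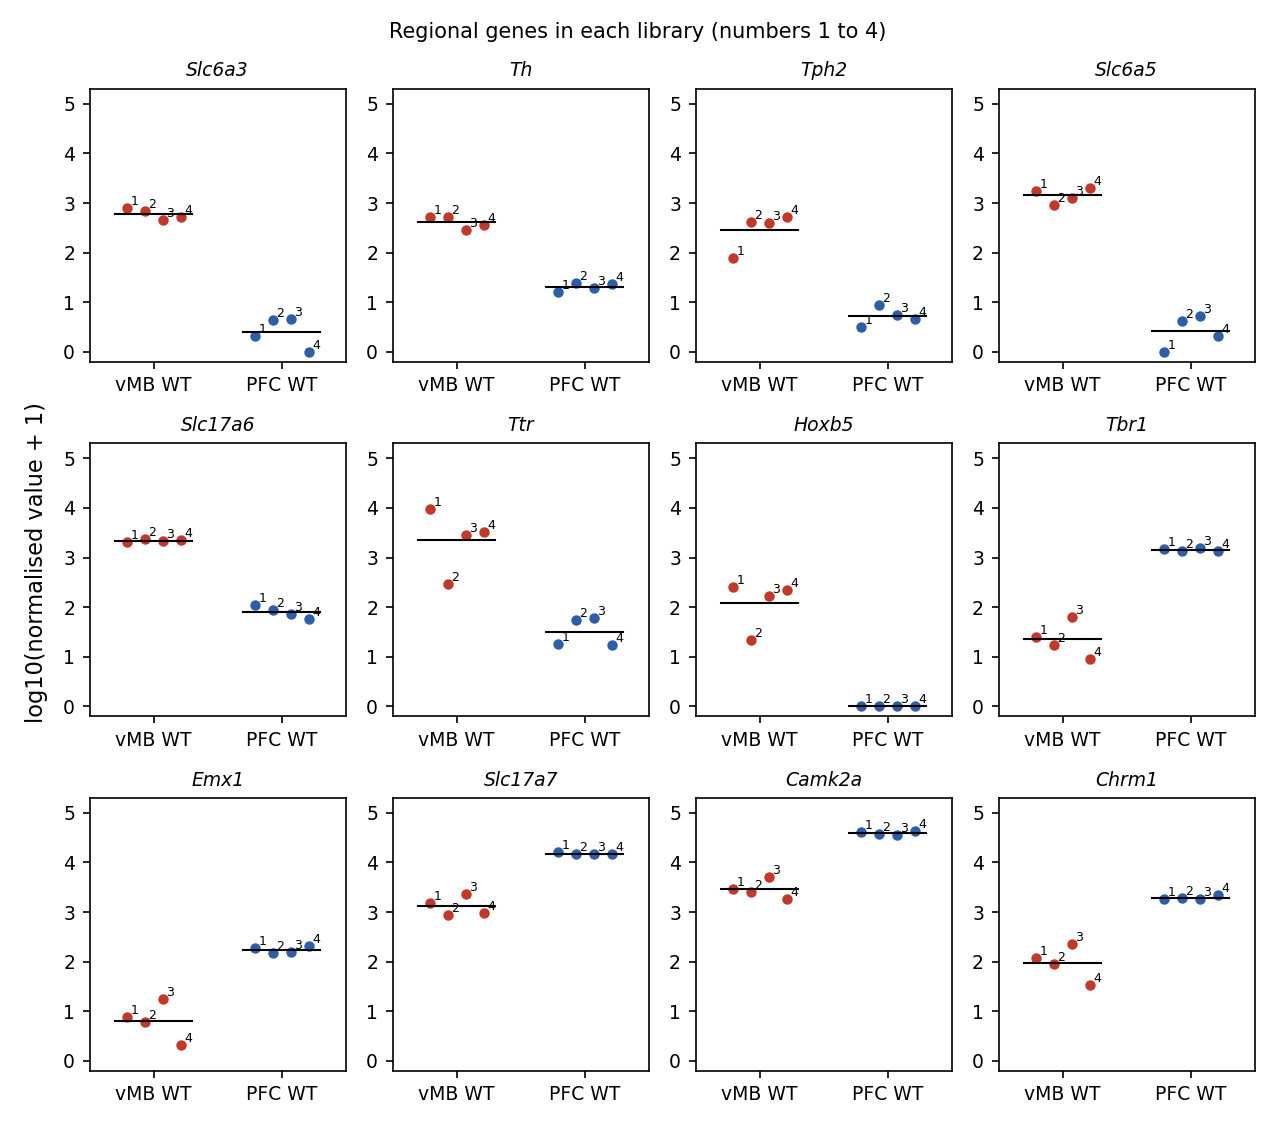
Normalised values of 12 regional genes in each library, on a log10(value + 1) axis, with vMB WT (red) left of PFC WT (blue) and the numbers 1 to 4 marking the libraries; the bars are group means of the plotted values. Slc6a3 to Hoxb5 stand high in vMB WT and Tbr1 to Chrm1 in PFC WT. The points of Tph2, Hoxb5, Ttr, Tbr1, Emx1 and Chrm1 spread widely within vMB WT.

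Serotonin neuron genes were higher in vMB WT, in unequal measure. Tph2, the rate-limiting enzyme of serotonin synthesis in brain, read 75.5, 419, 389 and 513 in vMB WT and 2.21, 7.89, 4.62 and 3.53 in PFC WT, a difference of 5.77 ± 0.54 (adjusted p = 3.4e-06, limma). The serotonin transporter Slc6a4 read 51.9, 314, 282 and 341 in vMB WT and 1.29, 0, 1.05 and 0 in PFC WT, and the raphe factor Fev read 8.19, 25.2, 30.2 and 52.2 in vMB WT and was listed at 0 in every PFC WT library. Library 1 of vMB WT was the lowest in all 3 genes, and without it Tph2 and Slc6a4 differed by 6.40 and 7.73, against 5.77 and 7.09 with it. Of the 8 listed serotonin genes 6 were higher, and without that library 7 were. The cation transporter Slc22a3 passed neither way, at 20.3 ± 8.91 in vMB WT and 14.3 ± 5.64 in PFC WT.

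Noradrenaline neurons lie in the pons and medulla, and their genes were present in every vMB WT library. Dbh, which converts dopamine to noradrenaline, read 178, 166, 109 and 137 in vMB WT and 0, 1.08, 2.21 and 2.25 in PFC WT, and the noradrenaline transporter Slc6a2 read 155, 167, 91.4 and 109 in vMB WT and 0, 0, 1.08 and 0 in PFC WT. Their differences were 6.08 ± 0.38 and 6.73 ± 0.36. Pnmt, which makes adrenaline, was at 0, 0, 0 and 0.763 in vMB WT and 5.59, 1.82, 1.86 and 0.948 in PFC WT, below the minimum for a test.

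Of 11 cholinergic and motor neuron genes found, 10 were higher in vMB WT without the minimum on the mean, and 6 reached it. Choline acetyltransferase (Chat) read 117, 110.4, 105 and 114 in vMB WT and 4.43, 1.13, 8.11 and 7.07 in PFC WT, the choline transporter Slc5a7 differed by 4.92 ± 0.25, and acetylcholinesterase (Ache) read 2149, 1998, 1794 and 2193 in vMB WT and 538, 527, 548 and 581 in PFC WT. Peripherin (Prph), an intermediate filament of motor and other long-axon neurons, averaged 190.1 ± 9.01 in vMB WT and 5.39 ± 2.24 in PFC WT. The peptide precursor Calca differed by 4.76 ± 0.51.

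Hox genes, which pattern the hindbrain and spinal cord and are silent in front of the hindbrain, were present in vMB WT. Of 26 genes listed 25 were found and 23 had a value above 0, and without the minimum on the mean 16 of these were higher and none lower. The 13 that reached the minimum could do so only through vMB WT. Hoxb5 (chromosome 11) read 257, 20.2, 166 and 219.9 in vMB WT and was listed at 0 in every PFC WT library. Hoxa5 read 214, 18.4, 129 and 200.0 in vMB WT and 1.11, 1.13, 1.16 and 0 in PFC WT, Hoxd3 read 151, 19.4, 112 and 161 in vMB WT and 0.811, 2.06, 0.849 and 0 in PFC WT, and Hoxc4 read 109.6, 19.7, 90.2 and 97.3 in vMB WT and was listed at 0 in every PFC WT library. Hoxa2, Hoxa3 and Hoxa4 averaged 27.9 ± 7.24, 38.1 ± 22.2 and 54.8 ± 20.9 in vMB WT and were also listed at 0 in every PFC WT library. Library 2 of vMB WT was the lowest for each of these 7 genes. The Hox values summed to 1369, 203, 909.7 and 1315 in vMB WT libraries 1 to 4 and to 5.66 to 18.5 in PFC WT. Hoxb8 was listed at 0 in library 2 of vMB WT, at 77.3, 24.4 and 98.3 in the other libraries, and at 0 throughout PFC WT. Without library 2 of vMB WT the differences of Hoxa3, Hoxa5, Hoxb5, Hoxb8 and Hoxd3 were 5.59, 6.66, 7.73, 5.86 and 6.30, against 4.98, 5.86, 6.90, 4.40 and 5.60 with it. Hoxb8 differed by 3.77 without library 1 and by 3.65 without library 4. These values go against a piece of midbrain alone, so vMB WT is used here as the name of the dissected piece.

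**Figure D3:**
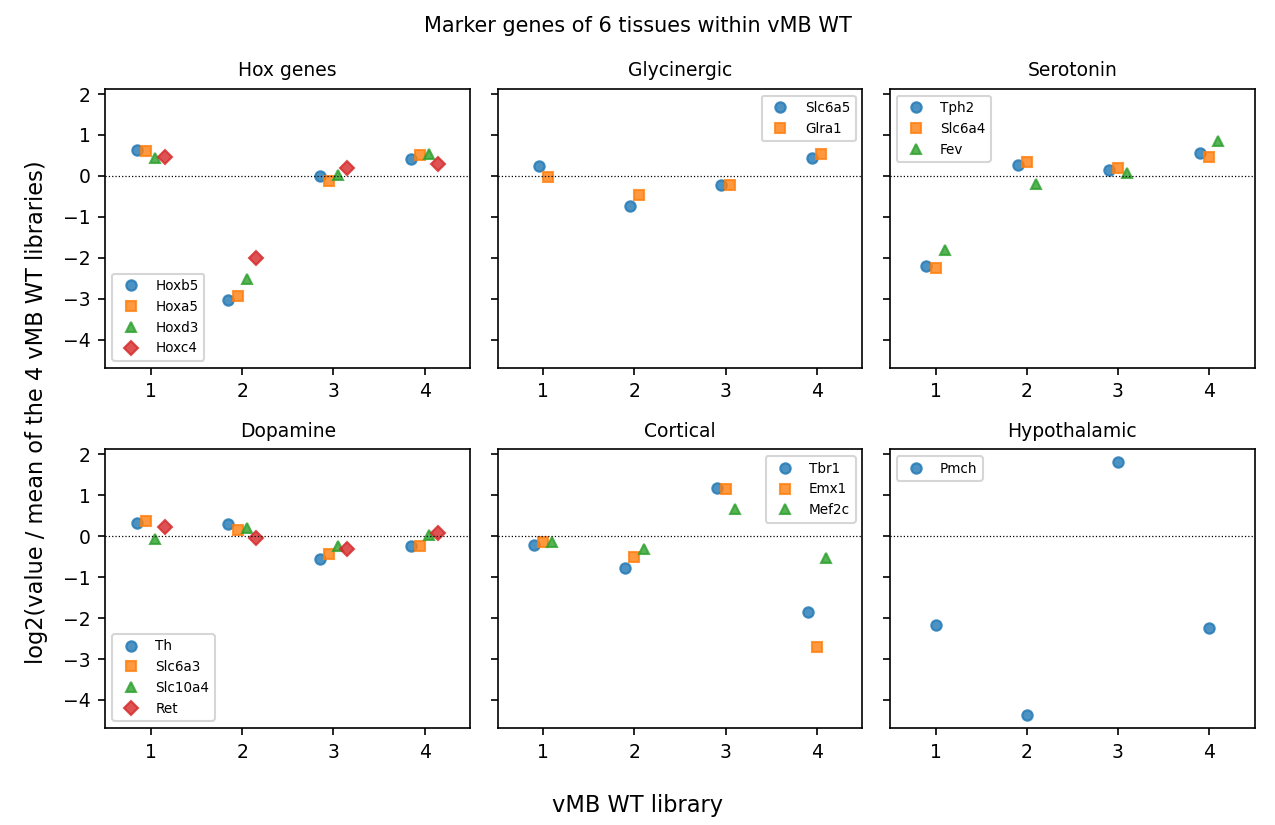
Marker genes of 6 tissues in the 4 vMB WT libraries, each gene divided by its mean over the 4, on a log2 axis where 0 is the mean; each symbol is 1 gene and the libraries have no order. Hox and glycinergic genes dip in library 2, serotonin genes dip in library 1, and cortical genes and the hypothalamic Pmch peak in library 3.

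The other tissue markers also varied from library to library of vMB WT. Transthyretin (Ttr), the main product of the choroid plexus, read 9472, 287, 2895 and 3240.5 in vMB WT and 16.6, 54.3, 60.2 and 16.5 in PFC WT, with library 2 lowest. Its difference was 6.14 with every library, 5.45 without library 1 of vMB WT and 7.13 without library 2. Of 12 choroid plexus genes 10 were higher without the minimum on the mean and 9 reached it, low ones mainly through vMB WT. Pmch, the melanin-concentrating hormone of the lateral hypothalamus, read 17, 3.68, 268 and 16.1 in vMB WT and 3.32, 21.5, 0 and 0 in PFC WT, so that a single library carried it, and it passed neither way (adjusted p = 0.058, limma), although it was called higher without library 2 of vMB WT (3.80) or library 2 of PFC WT (3.94). Hcrt, the orexin precursor of the same area, stood at 51.9 in that library and at no more than 2.12 in the other vMB WT libraries. Of 15 hypothalamic peptides 4 reached the minimum on the mean, and of these Trh and Cartpt were higher, at 2.39 and 3.45. Without the minimum 3 of the 15 were higher and 1 was lower. Oxt and Avp, which mark the magnocellular hypothalamus, were at or below 10.4 in vMB WT and 7.91 in PFC WT.

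Thalamic genes were higher in 8 of 11. Tcf7l2, a factor of thalamic, habenular and tectal neurons, read 554, 806, 620.3 and 492 in vMB WT and 47.9, 40.1, 30.4 and 34.1 in PFC WT. Gbx2 differed by 4.17 ± 0.56 (3.59 without library 2 of PFC WT), the kinase Prkcd by 2.54 ± 0.28, Lef1 by 1.28 ± 0.15, and netrin-G1 (Ntng1), which marks thalamocortical axons, by 2.44 ± 0.14. Tac2, a tachykinin of the habenula and of cortical interneurons, was lower at -2.17 ± 0.22. The granule cell GABA-A subunit Gabra6, known from the cerebellum, read 34, 14.2, 82.7 and 27.2 in vMB WT and 1.51, 0, 0 and 0 in PFC WT. What part these neighbouring tissues had in the differences of genes shared by many cell types was not tested.

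The vesicular glutamate transporters differed in opposite directions. Slc17a6 (VGLUT2, ENSMUSG00000030500, chromosome 7, 51622006 to 51671119) read 2101, 2359.5, 2114 and 2224 in vMB WT and 109.6, 87.1, 71.8 and 57.8 in PFC WT, a difference of 4.77 ± 0.16 (adjusted p = 3.4e-09, limma) and a ratio of 27. Slc17a7 (VGLUT1, ENSMUSG00000070570, chromosome 7, 45163949 to 45176142) read 1509, 856, 2281 and 957 in vMB WT and 15902, 14908, 14606 and 14619 in PFC WT, a difference of -3.53 ± 0.24 (adjusted p = 3.0e-07, limma). Per kilobase of exon, the mean level of Slc17a6 was 407 and that of Slc17a7 was 259.7 in vMB WT, while in PFC WT they were 15.1 and 2784. The third member of the family, Slc17a8, passed neither way and was lowest in library 1 of vMB WT, at 11.3, 71.8, 59 and 78.7 in vMB WT and 22.1, 14.7, 30.1 and 16.5 in PFC WT. Without that library it was called higher, at 1.74. Of 10 glutamate transporter genes, glial ones included, 2 were higher and 5 lower.

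Glycine transmission genes were higher in vMB WT. The glycine transporter of inhibitory nerve endings, Slc6a5 (ENSMUSG00000039728, chromosome 7, 49910146 to 49963856), read 1782, 913, 1288 and 2051 in vMB WT and 0, 3.15, 4.31 and 1.1 in PFC WT. Its difference of 9.11 ± 0.45 (adjusted p = 2.9e-08, limma) was the largest of all tested genes. The glycine receptor subunit Glra1 averaged 394 ± 125 in vMB WT and 4.53 ± 2.51 in PFC WT, the glial glycine transporter Slc6a9 differed by 2.12 ± 0.12, and the receptor beta subunit Glrb by 0.71 ± 0.07. Slc6a5 was lowest in library 2 of vMB WT, as were the Hox genes named above, although 913 there still exceeded every PFC WT value. Glycine neurons are most dense in the hindbrain and spinal cord. What part tissue from there had in the difference of Slc6a5 was not tested.

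GABA genes differed by less. Gad1 averaged 2863 ± 318 in vMB WT and 2350.0 ± 239.9 in PFC WT and passed neither way, at 0.28 ± 0.09. Gad2 and the vesicular transporter Slc32a1 were higher by 0.98 ± 0.11 and 1.44 ± 0.09. The plasma membrane transporter Slc6a11 (GAT3), which is made by astrocytes, read 5359, 6261, 5297 and 5558 in vMB WT and 1266, 1385, 1448 and 1435 in PFC WT. The GABA transaminase Abat differed by 1.24 ± 0.06. In all, 10 of 16 tested genes of GABA and glycine transmission were higher and 2 were lower, among them the adhesion molecule Nlgn2 at -0.57 ± 0.06.

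In the other direction, transcription factors of cortical projection neurons were lower in 25 of 30, with 12 at least 4-fold lower. Tbr1 averaged 28 ± 24.7 in vMB WT and 1443 ± 98.5 in PFC WT, a difference of -6.01 ± 0.44 (adjusted p = 5.5e-07, limma). Emx1, Fezf2 and Neurod6 differed by -4.77 ± 0.49, -4.61 ± 0.61 and -3.54 ± 0.30, and Mef2c, an activity-regulated factor, read 282, 251, 497 and 214 in vMB WT and 5459, 4591, 4653 and 5618 in PFC WT. Bcl11a and Lmo4 differed by -2.06 ± 0.13 and -2.71 ± 0.11. Without library 3 of vMB WT, Fezf2 differed by -5.21, and without library 4 by -3.99, against -4.61 with both. Library 3 of vMB WT was the highest and library 4 the lowest of its group in Tbr1, Emx1 and Mef2c, and without library 3 the count was 24 of 30 with a median of -1.89, against -1.75 with it.

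Foxp2, a factor of layer 6 that is also made in brainstem and thalamus, and Etv1 of layer 5 were the 2 exceptions, at 1.13 ± 0.29 and 0.41 ± 0.11, and Etv1 lost its call without library 3 of vMB WT (0.35) or library 2 of PFC WT (0.33). Genes used as layer markers were mixed, with 6 of 21 higher and 10 lower. Cux2 of the upper layers and Stard8 differed by -1.40 ± 0.15 and -2.86 ± 0.24, and Rasgrf2 by -0.64 ± 0.14. Nxph4, a secreted neurexin ligand of layer 6b, read 432, 345, 339 and 466 in vMB WT and 17.7, 32.8, 31.3 and 8.25 in PFC WT. Tshz2, Whrn and Scnn1a were also higher, at 0.91, 0.52 and 0.81, though Scnn1a lost its call without library 2 or 3 of vMB WT (0.76 and 0.71). Such genes mark layers within cortex and are not limited to it.

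Of 24 interneuron genes, 15 were lower and 6 were higher. The factors Lhx6 and Dlx1, which specify cortical interneurons, differed by -4.04 ± 0.44 and -3.86 ± 0.43. Neuropeptide Y (Npy) read 83.3, 69.9, 114 and 55 in vMB WT and 791, 769.9, 915 and 956 in PFC WT, and somatostatin (Sst) read 880.0, 806, 863 and 777 in vMB WT and 1917, 2504, 1870.0 and 1907 in PFC WT. The calcium-binding proteins parvalbumin (Pvalb) and calretinin (Calb2) went the other way, whereas Calb1, given above, was lower. Pvalb read 1526, 1142, 1177 and 1176 in vMB WT and 265, 273, 366 and 346 in PFC WT. Calb2 read 1368, 1466, 1217 and 1294 in vMB WT and 131, 144, 59.1 and 74.3 in PFC WT. Nos1, Adarb2, Prox1 and Tac1 were higher by 0.77, 0.80, 1.40 and 0.78.

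Signalling proteins of the forebrain spine were lower as a body, in 27 of 29 genes, 16 of them at least 4-fold, with a median of -2.15. The kinase subunit Camk2a, the most abundant protein kinase of the cortical postsynapse, read 2895, 2578, 4974 and 1829 in vMB WT and 41379.7, 36908, 35282 and 43853 in PFC WT, a difference of -3.77 ± 0.23 (adjusted p = 1.2e-07, limma). Neurogranin (Nrgn), which holds calmodulin in spines, averaged 1258 ± 536 in vMB WT and 18011 ± 2006 in PFC WT. The inositol kinase Itpka differed by -4.65 ± 0.42 and the nucleotide exchange factor Kalrn by -3.42 ± 0.18. The scaffolds PSD-95 (Dlg4), Shank1 and Dlgap2 were lower at -1.31 ± 0.06, -1.72 ± 0.08 and -2.62 ± 0.12. Sipa1l1, Baiap2 and Ppp1r9b had the smallest p-values of the list and differed by -2.39, -2.93 and -1.56. Of the other kinase subunits, Camk2b was lower at -0.64 ± 0.06, Camk2d was higher at 0.64 ± 0.08, and Camk2g passed neither way at 0.36 ± 0.07, though it was called without library 3 or 4 of PFC WT (0.40 and 0.39).

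Immediate early genes, which neurons switch on within minutes of strong activity, were lower in vMB WT in 20 of 23, and 13 of these by at least 4-fold. Egr3 read 29.3, 32.2, 46.8 and 20.9 in vMB WT and 1079.9, 898, 1061 and 1325 in PFC WT, a difference of -5.08 ± 0.21 (adjusted p = 8.4e-09, limma). Arc, whose product helps to remove AMPA receptors from synapses, averaged 388 ± 42.4 in vMB WT and 4586 ± 2269 in PFC WT. Fosb averaged 37.3 ± 11.4 in vMB WT and 320.5 ± 79.2 in PFC WT, and Fosl2 differed by -1.96 ± 0.19. Npas4, which responds to calcium entry alone, averaged 59.1 ± 24 in vMB WT and 598 ± 199 in PFC WT, and Homer1 read 219, 233, 293 and 231 in vMB WT and 2147, 1572, 1383 and 1913 in PFC WT. Nptx2, Egr4 and Nr4a3 differed by -2.53 ± 0.13, -4.47 ± 0.30 and -2.48 ± 0.22. Fos itself overlapped between regions, at 134, 207, 196 and 338 in vMB WT and 237, 495, 850.4 and 664 in PFC WT, and differed by -1.29 ± 0.36 (adjusted p = 0.0095, limma). Jun, Jund and Nr4a2 passed neither way, at -0.09, -0.33 and -0.32, with Jund called lower without library 3 of PFC WT (-0.38) and Nr4a2 without library 3 of vMB WT (-0.53). The list summed to 4436, 4959.7, 5836 and 5763 in vMB WT and to 16537, 23036, 26475 and 30705 in PFC WT, which do not overlap.

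Several early genes are known targets of the factor CREB, which binds a short response element, so the promoters of 4 that were at least 4-fold lower and hold the core of that element are shown. Each is the RefSeq window (build GRCm38.p6) of 250 bases before to 50 after the transcript start, 5′ to 3′ on the gene's strand, with TGACGT or its reverse complement in capitals.
Npas4 (chr19:4989922-4990221, minus strand): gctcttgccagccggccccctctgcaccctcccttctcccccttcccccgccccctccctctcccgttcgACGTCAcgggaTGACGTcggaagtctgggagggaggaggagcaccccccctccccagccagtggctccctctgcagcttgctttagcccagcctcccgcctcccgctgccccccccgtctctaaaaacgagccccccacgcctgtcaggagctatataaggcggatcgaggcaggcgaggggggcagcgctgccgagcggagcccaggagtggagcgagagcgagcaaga
Nr4a3 (chr4:48045055-48045354, plus strand): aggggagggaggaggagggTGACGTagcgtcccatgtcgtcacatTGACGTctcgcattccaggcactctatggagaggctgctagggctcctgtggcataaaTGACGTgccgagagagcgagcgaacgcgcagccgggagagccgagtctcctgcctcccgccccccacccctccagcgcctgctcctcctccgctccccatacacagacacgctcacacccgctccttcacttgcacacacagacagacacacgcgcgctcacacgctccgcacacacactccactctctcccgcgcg
Egr4 (chr6:85513540-85513839, minus strand): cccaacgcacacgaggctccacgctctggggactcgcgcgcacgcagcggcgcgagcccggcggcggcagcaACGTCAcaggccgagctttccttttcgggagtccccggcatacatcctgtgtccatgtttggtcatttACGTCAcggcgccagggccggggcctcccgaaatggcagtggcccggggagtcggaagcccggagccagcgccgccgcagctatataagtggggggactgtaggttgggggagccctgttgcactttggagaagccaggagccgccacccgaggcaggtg
Homer1 (chr13:93303507-93303806, plus strand): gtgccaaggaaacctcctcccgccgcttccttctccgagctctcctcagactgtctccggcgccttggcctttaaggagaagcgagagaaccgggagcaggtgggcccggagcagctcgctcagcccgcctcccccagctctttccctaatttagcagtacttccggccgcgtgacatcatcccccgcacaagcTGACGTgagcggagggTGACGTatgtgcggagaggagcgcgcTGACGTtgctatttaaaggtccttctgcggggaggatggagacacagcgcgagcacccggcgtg
Nr4a3 and Homer1 hold the 6 letters 3 times each, and Npas4 and Egr4 hold them 2 times each. Of the 23 early genes 18 had a window in the table, and 10 of these held TGACGT on either strand, against 13.07% of the 10568 tested genes with a window. Among the 9 with a window that were at least 4-fold lower, 5 held it. The full palindrome TGACGTCA, which contains TGACGT, was in 2 of the 18 and in 3.52% of tested genes, and the CArG box of serum response factor was in 1 of the 18 and in 1.61%. A match gives the letters and not a bound site.

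**Figure D4:**
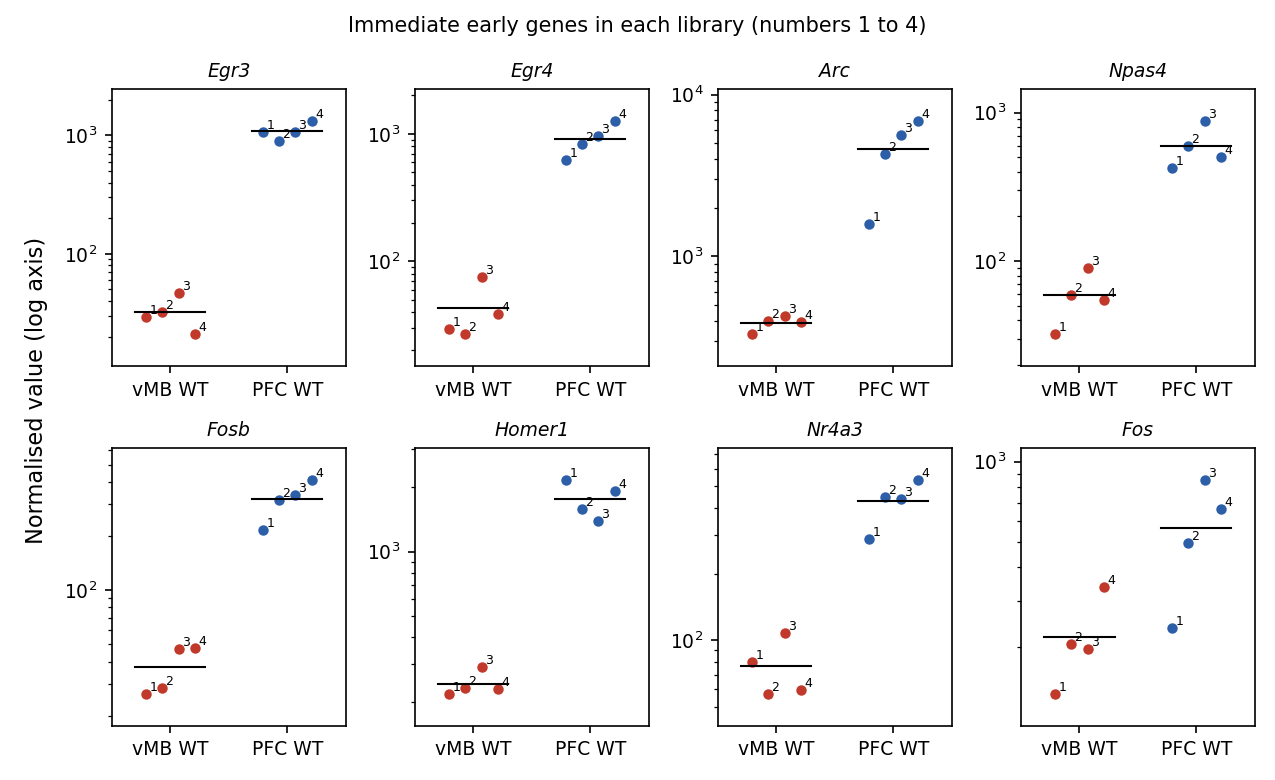
Normalised values of 8 immediate early genes in each library on a log axis, vMB WT (red) left of PFC WT (blue); numbers 1 to 4 mark the libraries and bars the group means. Egr3, Egr4, Arc, Npas4, Fosb, Homer1 and Nr4a3 stand apart between regions, and Fos overlaps.

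Glutamate receptor genes went both ways. Of 7 NMDA receptor subunits 4 were lower and 3 were higher. Grin2b, the partner subunit of forebrain receptors with slow decay, read 512, 404, 649.9 and 379 in vMB WT and 3710.1, 2849.5, 2894 and 3339 in PFC WT, and Grin2a, Grin1 and Grin2c differed by -1.47 ± 0.16, -0.69 ± 0.07 and -0.54 ± 0.09. Grin2d, known from midbrain and diencephalon, read 529, 534, 437 and 586 in vMB WT and 201, 262, 221 and 246 in PFC WT. Grin3a and Grin3b differed by 0.63 ± 0.09 and 4.48 ± 0.48, and Grin3b read at most 1.63 in PFC WT. Among AMPA and kainate receptor genes 10 of 16 were lower and 3 were higher. Gria2 and Gria3 differed by -1.39 ± 0.11 and -1.51 ± 0.07, Gria1 by -0.61 ± 0.11, and Gria4 by 0.63 ± 0.07. Grik5 was lower at -1.40 ± 0.06 and Grik1 higher at 0.80 ± 0.16. The trafficking subunits split, with Cacng3 at -2.51 ± 0.11 and Cacng5 at 1.84 ± 0.17.

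Of 7 metabotropic glutamate receptors 2 were higher and 3 lower. Grm2, an autoreceptor, read 126, 156, 171 and 118 in vMB WT and 672, 629, 529.5 and 644 in PFC WT, and Grm3 and Grm5 differed by -0.87 ± 0.09 and -0.97 ± 0.09. Grm4 was among the higher ones at 1.13 ± 0.12. Of 15 GABA-A receptor subunits 4 were higher and 6 lower. Gabrd, the extrasynaptic delta subunit of forebrain, averaged 110.1 ± 50.4 in vMB WT and 577 ± 54 in PFC WT. Gabrq and Gabre, subunits of brainstem and hypothalamic neurons, differed by 3.81 ± 0.43 and 4.05 ± 0.56. Gabra3 and Gabra4 were lower by -0.70 and -1.33, Gabrg1 was higher by 0.58, and the common subunit Gabra2 passed neither way at -0.27 ± 0.09.

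Of 11 tested genes of dopamine receptors and their signalling 5 were higher and 3 lower, and of 12 acetylcholine receptor genes 8 were higher and 3 lower. Among monoamine receptors, the dopamine autoreceptor Drd2 read 138, 168, 115 and 129.9 in vMB WT and 8.86, 10.2, 27.8 and 3.54 in PFC WT, with library 3 the highest of PFC WT, while the D1 receptor (Drd1a) read 17, 17.5, 16.1 and 18 in vMB WT and 79.7, 108, 146 and 54.2 in PFC WT. Htr2c, a serotonin receptor that is edited in brain, read 822, 1115, 998 and 962 in vMB WT and 149.8, 187, 93.7 and 75.3 in PFC WT. Htr2a was lower at -1.30 ± 0.27 and Htr7 higher at 1.76 ± 0.28, and 6 of the 12 serotonin receptors were higher and 5 lower. Of the muscarinic receptors, Chrm1 read 119, 88, 229 and 32.9 in vMB WT and 1853, 1917, 1816 and 2159 in PFC WT, and Chrm4 and Chrm3 differed by -3.43 ± 0.20 and -1.61 ± 0.14. Chrm2, the autoreceptor of cholinergic neurons, was higher at 1.94 ± 0.12. The nicotinic subunits Chrna3, Chrna4 and Chrnb2 were higher by 3.16, 0.85 and 0.67.

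Adrenergic receptors were lower in 4 of 7, with Adra1d at -2.23 ± 0.19 and Adrb1 at -2.18 ± 0.17. Adra2a, the autoreceptor of noradrenaline neurons, was higher at 1.71 ± 0.14. Of the opioid genes, the receptor Oprl1 was higher at 1.00 ± 0.07 and the precursor Penk at 0.96 ± 0.12, whereas Oprd1 and Pdyn were lower at -1.27 ± 0.16 and -1.95 ± 0.19. The mu receptor Oprm1 and the kappa receptor Oprk1 passed neither way, at 0.86 ± 0.36 and 0.63 ± 0.33. Oprm1 was called higher without library 4 of PFC WT (1.17) and Oprk1 without library 3 of PFC WT (0.98).

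Ion channel genes went both ways. Of 53 potassium and HCN channel genes 13 were higher and 23 lower. Kcnh3, a forebrain channel of the ether-a-go-go family, averaged 54.7 ± 41.4 in vMB WT and 1933 ± 193 in PFC WT, the inward rectifier Kcnj4 averaged 39.7 ± 35.2 in vMB WT and 995 ± 65.7 in PFC WT, and the silent subunit Kcnv1 differed by -4.60 ± 0.30. Kcnq5 and Kcnh1 were lower at -2.68 and -2.27. Channels known to let neurons fire fast were among the higher ones, and Kcnc1, Kcna1 and Kcna2 differed by 1.16 ± 0.09, 1.15 ± 0.14 and 0.98 ± 0.21. The pacemaker channels Hcn2 and Hcn4 differed by 1.36 ± 0.10 and 2.47 ± 0.21, Kcnh2 by 1.8 ± 0.09, and the beta subunit Kcnab3 by 1.51 ± 0.11. Kcna4 and Kcna5 passed neither way, at -0.14 and 0.34. The inward rectifier of astrocytes and oligodendrocytes, Kcnj10, was higher at 1.43 ± 0.12.

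Calcium channel genes were lower in 12 of 15 and higher in 1. Cacnb3, the beta subunit of forebrain channels, read 498, 535, 643 and 479.6 in vMB WT and 3445, 3151, 2917 and 3279.5 in PFC WT, and Cacnb1 and Cacna1e differed by -1.48 ± 0.06 and -1.48 ± 0.10. Cacna1d, the L-type subunit that dopamine neurons use for pacemaking, was lower at -1.16 ± 0.09, and Cacna1a, Cacna1b and Cacna1c were lower by -0.97, -0.81 and -0.58. Cacna2d2 was the exception at 1.39 ± 0.15. Of 14 sodium channel genes 4 were higher and 3 lower, close to the shares over all genes (21.8% and 21.5%). Scn1a, the channel of fast-spiking axons, read 2544, 2605, 2629 and 2772 in vMB WT and 929.9, 898, 1228 and 1166 in PFC WT, Scn4b, which carries resurgent current, differed by 2.23 ± 0.29, and Scn2a1, the channel of thin axons, by -1.02 ± 0.15. Scn3b was lower at -0.83 ± 0.13, and Scn3a passed neither way at -0.11 ± 0.13.

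All 4 neurofilament subunits, which set axon calibre, were higher in vMB WT. The heavy subunit Nefh read 5988, 4523, 4173 and 6183 in vMB WT and 461, 410.4, 613 and 592 in PFC WT, a difference of 3.33 ± 0.15 (adjusted p = 1.8e-08, limma). Nefm, Nefl and Ina differed by 2.25 ± 0.19, 1.38 ± 0.10 and 0.85 ± 0.08. In the list of 10 filament and large-neuron genes 8 were higher and none lower, with osteopontin (Spp1) at 4.76 ± 0.25 and vimentin (Vim) and nestin (Nes) passing neither way at -0.14 and -0.47. Nes was called lower without library 4 of vMB WT (-0.58) or library 2 of PFC WT (-0.57).

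Genes of the synaptic vesicle release machinery went both ways as well. Of 43 such genes, 10 were higher and 19 lower, and 7 had an interval within the level range. The vesicle protein synaptophysin (Syp) passed neither way at -0.16 ± 0.06. The calcium sensor Syt2 read 3717, 3178, 3015 and 3915 in vMB WT and 182, 165, 315 and 275 in PFC WT, while Syt1 read 4179, 5062, 5983 and 4528 in vMB WT and 14641, 12265, 13887 and 13847 in PFC WT. The vesicle SNARE Vamp1 read 10839, 9006, 8080.0 and 9663 in vMB WT and 1124, 891, 1339 and 1215 in PFC WT, while Vamp2 read 5034, 5509.7, 5792 and 5042 in vMB WT and 11384, 11217, 10907 and 11225 in PFC WT. Stx1a read 204, 229, 337 and 192 in vMB WT and 3412, 3492, 2878 and 3403 in PFC WT. Unc13a and Bsn were lower at -1.75 and -1.97, Unc13c was higher at 2.56, and the synapsins Syn1 and Syn2 were lower at -1.0 and -0.73, with Syn3 passing neither way at 0.21.

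Related genes were also followed in 13 pairs. In 10 of the 13 the first was higher in vMB WT and the second lower, and in all 13 the log2 ratio of the pair did not overlap between the regions. The pairs that passed in opposite ways were Slc17a6 and Slc17a7, Otx2 and Otx1, Camk2d and Camk2a, Syt2 and Syt1, Grin2d and Grin2a, Cplx1 and Cplx2, Sv2c and Sv2b, Vamp1 and Vamp2, Gria4 and Gria1, and Scn1a and Scn2a1. For the complexins, which clamp the fusion machinery, Cplx1 averaged 10222 ± 1294 in vMB WT and 5378 ± 860.4 in PFC WT, and Cplx2 averaged 4145 ± 279.8 in vMB WT and 12457 ± 1392 in PFC WT. Sv2c and Sv2b differed by 3.02 ± 0.22 and -1.83 ± 0.12, and Otx1 by -1.34 ± 0.25. In Kcna1 and Kcna4, and in Hapln4 and Hapln1, only the first passed, and Hapln4 and Hapln1 differed by 0.73 ± 0.12 and -0.24 ± 0.11. In Gabra3 and Gabra5 the first was lower and the second passed neither way, at -0.15 ± 0.08. The pairs were chosen with earlier results of these data known, and no share over other pairs of genes is at hand. The counts therefore describe these pairs only and say nothing about related genes in general.

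**Figure D5:**
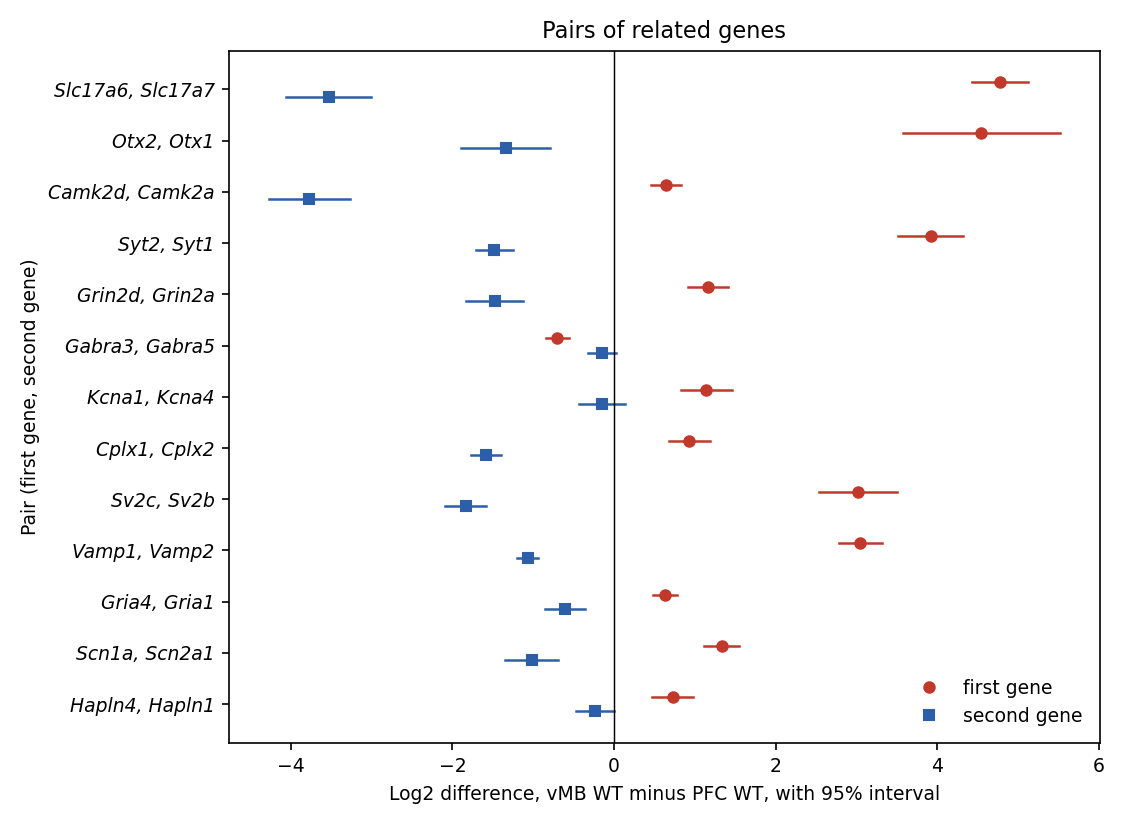
Log2 difference, vMB WT minus PFC WT, of the 13 pairs of related genes, 1 pair a row, with the 95% interval of each; red circles are the first gene named and blue squares the second. The first gene lies right of the second in 12 rows, and in the row of Gabra3 and Gabra5 it lies left.

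Glial genes also differed between the regions. All 28 oligodendrocyte and myelin genes were higher in vMB WT, 14 of them by at least 4-fold, with a median of 2.03. Myelin basic protein (Mbp) read 89018, 80994, 72936 and 84364 in vMB WT and 13283, 17215, 36019 and 12537 in PFC WT, a difference of 2.19 ± 0.26 (adjusted p = 2.7e-05, limma). Mog and Mag differed by 2.37 ± 0.29 and 2.33 ± 0.26. Transferrin (Trf), the connexin Gjb1 and the nodal link protein Hapln2 differed by 2.75 ± 0.25, 3.00 ± 0.36 and 2.60 ± 0.19, and Apod by 2.28 ± 0.15. Library 3 of PFC WT held 36019 of Mbp, above the other PFC WT libraries and below all of vMB WT. The whole list summed to 169977 to 205694 in vMB WT and, in PFC WT libraries 1 to 4, to 34211, 40829, 84431 and 31303. Without library 3 of PFC WT the count stayed at 28 of 28 and the median was 2.34.

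Of 11 genes of oligodendrocyte precursors 5 were higher, 1 was lower and 5 passed neither way, with a median of 0.46. Pdgfra, the growth factor receptor that defines these cells, passed neither way and averaged 425 ± 41.3 in vMB WT and 447 ± 61.5 in PFC WT, a difference of -0.07 ± 0.11 with a 95% interval from -0.30 to 0.16. Cspg4 and Gpr17 stood at -0.34 ± 0.14 and -0.17 ± 0.07, and Cspg4 was called lower without library 1 of PFC WT (-0.42). Enpp6 and Bcas1, which mark cells that are starting to make myelin, were higher at 2.17 ± 0.22 and 2.12 ± 0.24, as was C1ql1 at 1.49 ± 0.18, while Matn4 was lower at -0.56 ± 0.14.

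Astrocyte genes were higher in 16 of 25 and lower in 5. Angiotensinogen (Agt), the precursor of angiotensin, read 1436, 1678, 1522 and 1623 in vMB WT and 21, 40.7, 38.2 and 34.2 in PFC WT, a difference of 5.54 ± 0.17 (adjusted p = 3.3e-09, limma). The matrix protein Sparc read 10688, 10489, 9092 and 10267 in vMB WT and 1202, 1226, 1408 and 1460.3 in PFC WT, and Gfap and the water channel Aqp4 differed by 1.77 ± 0.09 and 1.26 ± 0.06. The glutamate transporters were lower: Slc1a2 (GLT1) read 8495, 9300.0, 10319 and 8104 in vMB WT and 21077, 19952, 22010.5 and 21606 in PFC WT, and Slc1a3 (GLAST) read 2030.0, 2057, 2639 and 1869 in vMB WT and 6193, 6199, 5755 and 6289.8 in PFC WT. Chrdl1, an astrocyte signal that matures cortical synapses, read 15.2, 17.4, 25.5 and 29.1 in vMB WT and 312, 315, 280.1 and 304 in PFC WT. Mfge8 and Cyp4f15 were lower at -1.87 and -1.55. The general marker Aldh1l1 averaged 548 ± 26.8 in vMB WT and 554 ± 103 in PFC WT, a difference of 0.00 ± 0.11.

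Of 17 microglia genes 10 were lower in vMB WT and none was higher, with a median of -0.60. The fractalkine receptor Cx3cr1 read 194, 256, 241 and 209 in vMB WT and 414, 339.7, 478 and 376 in PFC WT, and P2ry12, Tmem119 and Fcrls differed by -0.91 ± 0.13, -0.66 ± 0.15 and -1.03 ± 0.18. The complement gene C1qa passed neither way at -0.29 ± 0.09. Of 16 endothelial genes 14 passed neither way, with Cdh5, Pecam1 and Cldn5 at -0.12, -0.21 and -0.19, Flt1 lower at -0.39 ± 0.15 and the lactate transporter Slc16a1 higher at 0.89 ± 0.11. Flt1 lost its call without library 2 or 3 of vMB WT (-0.35 and -0.27) and without library 2 or 4 of PFC WT (-0.37 and -0.29), and Cldn5 was called lower without library 1 of vMB WT (-0.39). Among mural genes Pdgfrb and Anpep were lower at -0.51 and -1.27, Notch3 was higher at 0.73, and Rgs5, Kcnj8 and Abcc9 passed neither way at -0.02, 0.45 and 0.03.

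Fibroblast and meningeal genes were higher in 7 of 14 and lower in none. Prostaglandin D synthase (Ptgds), made by meninges, choroid plexus and oligodendrocytes, read 10908, 13108, 9613 and 11901 in vMB WT and 3144, 2278, 3655 and 6007 in PFC WT, and decorin (Dcn), Col3a1 and Col1a2 differed by 2.04 ± 0.20, 1.78 ± 0.31 and 0.49 ± 0.12, while Col1a1 passed neither way at 0.20 ± 0.20. The ependymal factor Foxj1 read 204, 156, 127 and 184 in vMB WT and 22.1, 33.9, 92.7 and 28.3 in PFC WT, library 3 being the highest of PFC WT, and 2 of 7 tested ependymal genes were higher. Beside these, the PFC WT libraries also differed among themselves in smooth muscle actin (Acta2), at 77.5, 58.8, 48.7 and 413, with library 4 the highest.

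The adhesion gene at the centre of the study was then compared. N-cadherin (Cdh2), the adhesion molecule of excitatory synapses, read 1082, 1115, 1148 and 1124 in vMB WT and 1103, 1165, 1023 and 923 in PFC WT. Its difference was 0.09 ± 0.08 with a 95% interval from -0.08 to 0.26, inside 1.3-fold either way (adjusted p = 0.34, limma). Cdh2 is given here on the deposited scaling alone, and the same sum per library moved the median of all genes to 0.17. Its partner p120 catenin (Ctnnd1) read 807, 585, 602 and 632 in vMB WT and 861, 830.1, 1027 and 946 in PFC WT and was lower at -0.49 ± 0.11, and the scaffold Iqgap1 read 193, 185, 212 and 217 in vMB WT and 256, 254, 248 and 270.0 in PFC WT and missed the fold at -0.35 ± 0.09 (adjusted p = 0.0052, limma), which it reached without library 4 of vMB WT (-0.39). Of 27 cadherins and catenins 7 were higher and 8 lower, not far from the shares over all genes (21.8% and 21.5%). Cdh23, the cadherin of hair-cell tip links, read 69.7, 109, 87.3 and 134 in vMB WT and 12.2, 23.2, 8.88 and 4.05 in PFC WT, Cdh20 differed by 1.05 ± 0.10 and Cdh1 by 1.32 ± 0.35, and Cdh11, Cdh4 and the synaptic Ctnnd2 were lower at -0.96, -0.42 and -1.02. Cdh4 kept its call without library 2 of vMB WT or library 3 of PFC WT (-0.57 and -0.50), and lost it without any 1 of the other 6, at -0.44 to -0.30.

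Among axon guidance genes 16 of 46 were higher and 18 lower. Robo3, a receptor that controls midline crossing, averaged 24.3 ± 10.3 in vMB WT and 444 ± 119.5 in PFC WT, and Plxnd1, Ephb6 and Plxna2 differed by -2.63 ± 0.16, -1.80 ± 0.08 and -1.35 ± 0.08. Ntn1 was higher at 1.27 ± 0.15, with its receptors Dcc, Unc5b and Unc5c at 0.64, 1.90 and 0.47 and Unc5a lower at -1.11. The ephrin Efnb3 and the semaphorin Sema3f were higher at 1.53 ± 0.19 and 1.69 ± 0.17. Of 13 perineuronal net and matrix genes 6 were higher and 2 lower. Aggrecan (Acan), the core of the nets, read 181, 138, 118 and 156 in vMB WT and 23.3, 19.2, 22 and 35.4 in PFC WT, neurocan (Ncan) read 554, 587, 569 and 504 in vMB WT and 1948, 1936, 1919 and 2179 in PFC WT, and brevican (Bcan) missed the fold at 0.28 ± 0.06. Spock3 was higher at 1.74 ± 0.12 and Tnr lower at -0.66 ± 0.13.

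Ranked over all genes with a mean of at least 50, without overlap and with an approved name, the 15 highest in vMB WT were Slc6a5, Slc6a3, Irx2, Slc6a4, Mab21l1, Hoxb5, Mab21l2, Slc6a2, Shox2, En1, Glra1, Slc10a4, Irx3, Dlk1 and Ttr. Transporters of glycine, dopamine, serotonin and noradrenaline took 4 of the places, and the homeobox factors Irx2, Hoxb5, Shox2, En1 and Irx3 took 5. Mab21l1 and Mab21l2, related nucleotidyltransferase-fold genes of the eye and midbrain, read 208, 281, 257 and 216 and 299, 241, 224 and 321 in vMB WT, and averaged 1.12 and 1.74 in PFC WT. Shox2, a homeobox gene of tectum and thalamus, differed by 6.40 ± 0.36.

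The 15 lowest in vMB WT included Igfn1, Tbr1, Hkdc1, Kcnh3, Dkkl1, Egr3, Kcnj4, Emx1, Itpka, Fezf2, Kcnv1, Kcnh4 and Ddn. Igfn1, an immunoglobulin-domain gene known from muscle, read 1.82, 2.49, 11.9 and 0 in vMB WT and 214, 176, 294 and 400.0 in PFC WT, a difference of -6.27 ± 0.61. Hkdc1, a hexokinase relative, read 2.72, 0.662, 5.59 and 3.38 in vMB WT and 132, 153, 159 and 239.8 in PFC WT. Dkkl1 and the channel Kcnh4 differed by -5.33 ± 0.35 and -4.60 ± 0.22. Dendrin (Ddn), a dendritic protein, read 768, 386, 2046 and 169.7 in vMB WT and 14871, 14062, 11258 and 13988 in PFC WT, with library 3 the highest and library 4 the lowest of vMB WT. Without library 3 of vMB WT, Igfn1 and Ddn differed by -6.92 and -5.18, against -6.27 and -4.57 with it.

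The most abundant of the level genes were Glul, Eef1a1, Ndrg4, App and Psap. Glutamine synthetase (Glul), an astrocyte enzyme, averaged 16432 ± 590.5 in vMB WT and 18191 ± 1140.3 in PFC WT. The amyloid precursor App averaged 14474 ± 762 in vMB WT and 12481 ± 937 in PFC WT. The regions did not overlap in Glul or App, and the 95% intervals, -0.28 to -0.01 and 0.07 to 0.36, exclude equal levels but stay within 1.3-fold. The elongation factor Eef1a1, Ndrg4 and the lysosomal Psap differed by -0.05 ± 0.06, 0.01 ± 0.06 and -0.02 ± 0.05. Of 78 cytosolic ribosomal protein genes 51 were level, 3 were higher and 4 lower. The 13 mRNAs encoded by mitochondrial DNA had a median of -0.39, with 8 lower and none higher, and made up 12.1% to 13.7% of all values in vMB WT and 14.2% to 16.5% in PFC WT. Scaled to the same sum per library their median was -0.23 with 2 lower, and under quantile normalization it was -0.04.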

How the data were processed

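Total RNA of the dissected regions was extracted with the GENzol kit, poly-A libraries were sequenced as single reads of 60 bases on a NextSeq instrument, and 8 of the 16 libraries of the series were used here. Per the study's methods and the submitters' processing notes, the authors trimmed reads with Cutadapt 1.8.3, aligned them with TopHat 2.0.10, counted them with HTSeq 0.6.1p1 and normalised the counts with a DESeq2 release that the sources used here do not name. The deposited values are a signal that the authors normalised. They are not simply read counts over a single size factor per library, since many low values are not whole multiples of a single read. The table also holds the authors' p-values, adjusted p-values, fold changes and pass marks for mutant against wildtype, which were not used. Values of 8 mutant libraries were not used either, so nothing here bears on the mutation.

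The processing notes name a human genome build while the table holds mouse identifiers. Coordinates were therefore looked up by identifier in GENCODE vM21 (GRCm38), and promoters by symbol in RefSeq (GRCm38.p6); they are not a statement on the build behind the counts. Of 826 listed symbols 822 were found.

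Values were tested as log2(value + 1) with limma 3.58.1 (R 4.3.3, 2 groups, mean-variance trend, Benjamini-Hochberg adjustment) for the 14801 of 39017 genes whose values averaged 10 or more, and single genes also by the exact permutation test. A call needed an adjusted p no greater than 0.05 with a fold of 1.3 or more. Low values lay near whole multiples of 1 read (tolerance 0.05) for 62.1% to 64.4% of entries. That allowed a rough estimate of the reads assigned to genes but not their recovery. No count model was therefore run, and depth-based intervals are not given. Python 3.11.15 with numpy 2.4.6, pandas 2.3.3, scipy 1.17.1 and matplotlib 3.10.9 did the rest.

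The members and lists were chosen with earlier results of these data known. The named genes are the study's own genes, the 15 largest rises and falls with a mean of at least 50, without overlap and with an approved name, in each of the 46 lists its first 4 genes, up to 3 of smallest p and members against its direction, the pairs, and the 5 most abundant level genes; any other gene was chosen after its values were seen. Some genes that the rule names, and 1 pair, are not reported here. The alternatives were other pseudocounts, filters, scalings, fold minimums and spreads, a replicate block, a title-code block, removal of a trend with exon length, and each library left out. The labels give the replicates separate titles and name no animal, though numbers 1 and 2 share a title code across regions, so p-values measure the spread between these libraries.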

Additional observations from a re-analysis of the deposited data

Results flagged for a closer look

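For each named gene with a mean of at least 10 in a region, the highest and the lowest library were compared with the others of that region, and a value is given here where its gap to the nearest library exceeded Dixon's critical value for 4 samples as a share of the group's range. Chance alone does so in about 1 in 20 groups, and it happened in 35 of 618 (5.7%). The libraries differed in how often they stood out, with 7 values from library 3 of vMB WT, 10 from library 3 of PFC WT and 1 to 4 from each of the others.

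In vMB WT, library 3 was the highest in Pmch (268.2) and Hcrt (51.94), peptides of the lateral hypothalamus, and in the receptor subunits Gabra5 (525.0), Gria3 (920.7) and Grik5 (1090.3). It was the lowest in Bcas1 (4085.7), a gene of myelinating cells, and in Chrna4 (526.0). Library 1 was the highest in Pvalb (1526.1) and Unc5a (678.1), library 2 the highest in Irx1 (186.7) and the lowest in Pdgfrb (138.9) and Whrn (472.2), and library 4 the highest in Aldh1l1 (588.5).

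In PFC WT, library 3 was the highest in the oligodendrocyte genes Bcas1 (2057.9), Mag (1844.5) and Trf (2161.7), in the ependymal Foxj1 (92.69) and in the adenosine receptor Adora2a (53.3). It was the lowest in Cacna1b (882.4), Gabrg1 (195.8), Pdyn (151.4), Stx1a (2877.8) and Vip (214.3). Library 4 was the highest in Acta2 (412.7) and Ncan (2178.9) and the lowest in Chrna4 (223.0) and Grik1 (47.93). Library 1 was the highest in Ctnnd2 (2242.8) and Grm4 (303.7) and the lowest in Cyp4f15 (161.4) and Lef1 (38.96), and library 2 was the highest in Lhx6 (173.6) and Sst (2504.2) and the lowest in Kcnj6 (161.3) and Sv2c (26.94).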

How the results depend on the processing

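Over 21 alternatives other than the fold minimums, 245 of the 282 named genes that passed were tested in each and kept their call in each, 11 lost it in at least 1, and none reversed. At a mean of at least 50, 27 of the 282 were not tested. Of the 282, 18 lost their call at a fold of at least 1.5 and 60 at a fold of at least 2. The 3231 genes higher and 3187 lower became 1194 and 1228 at a fold of at least 2, and the 414 genes at least 4-fold higher became 224 at a mean of at least 50, where 11740 genes were tested. With 1 library left out, the counts ran from 3023 to 3234 higher, 3054 to 3184 lower, 391 to 467 at least 4-fold higher, 353 to 406 at least 4-fold lower and 2218 to 2456 level. The fold minimum was not varied for the 4-fold counts, which it defines.

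Camk2b lost its call under quantile normalization, Ctnnd1, Pdgfrb and Rgs9 under the same sum per library, and Rgs9 and Cdh4 with no mean-variance trend. Pde10a, Flt1, Cdh4 and Sox6 lost theirs under removal of the length trend and under the same sum, Pgk1 under removal of the length trend, and Flt1 under 5 settings more. Of the named genes that had not passed, 20 gained a call under at least 1 alternative, among them Gad1, Bcan and Camk2g under quantile normalization. Of 46 list medians 10 changed sign or rounded to 0 under some alternative, each being a list whose members went both ways or mostly passed neither way. The lists of synaptic vesicle release machinery and of cadherins and catenins did only the latter. In size, 37 of the 46 moved under at least 1 alternative by more than the SD of the list between libraries of a region. The medians ran from 2.11 to 4.82 for midbrain dopamine transcription factors, from 3.15 to 5.86 for Hox genes and from 1.86 to 2.34 for oligodendrocyte and myelin genes.

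Samples with the same number did not deviate together across genes (r = 0.01, -0.01, -0.03 and 0.04 for numbers 1 to 4), and only numbers 1 and 2 share a title code, so the numbers were not taken to pair them. A replicate block gave 3199 genes higher, 3161 lower, 417 and 360 at least 4-fold, and 2657 level. No named gene lost its call under the block, and Nes and Sowahc gained one (-0.47 and 2.65). With the title code as a correlated block 3281 genes were higher and 3226 lower. Of the PFC WT libraries only number 4 correlated best with its own number.

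The limits are those of tissue pieces. Genes known from hindbrain, choroid plexus, hypothalamus and cortex varied between the vMB WT libraries, and genes near 0 in 1 region have folds that depend on the pseudocount: a pseudocount of 5 left 321 genes at least 4-fold higher and 300 lower. With 4 libraries a region, the exact test of a single gene cannot go below 0.0286.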

Other observations

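Striatal projection neuron genes, which were listed because tissue under the cortex can be taken along with it, went both ways, with 5 of 12 tested higher in vMB WT and 5 lower. The phosphatase regulator DARPP-32 (Ppp1r1b) averaged 482 ± 24.2 in vMB WT and 864 ± 206 in PFC WT, a difference of -0.81 ± 0.14. The phosphodiesterase Pde10a and the RGS protein Rgs9 were lower too, at -0.48 and -0.61. Pde10a lost its call without library 2 of PFC WT (-0.38), and Rgs9 without library 1 or 4 of vMB WT (-0.52 and -0.60) or library 2 or 3 of PFC WT (-0.47 and -0.46). Syndig1l, a relative of the AMPA receptor binder SynDIG1, was higher, at 209, 288, 229 and 234 in vMB WT and 19.9, 24.9, 54.5 and 10.6 in PFC WT. The adenosine receptor Adora2a passed neither way at -0.72 ± 0.33.

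Genes often used as references for qPCR were higher in 5 of 12 and lower in 2, against 21.8% and 21.5% over all genes. The glycolytic Gapdh and Pgk1 were higher at 0.44 ± 0.08 and 0.41 ± 0.09, as was the respiratory Sdha at 0.50 ± 0.05. Pgk1 lost its call without library 3 of vMB WT (0.36) or library 2 of PFC WT (0.33). The adaptor Ywhaz read 4034, 3983, 4389 and 3804 in vMB WT and 8012, 7509, 6840.1 and 7771 in PFC WT, a difference of -0.89 ± 0.07 (adjusted p = 5.8e-07, limma). Actb missed the fold at -0.38 ± 0.06, and Hprt, B2m, Tbp and Ppia passed neither way at 0.20, 0.26, -0.32 and 0.13. Actb reached the fold without library 1 or 4 of vMB WT (-0.41 and -0.39) or library 2 of PFC WT (-0.38), and Tbp was called lower without library 4 of vMB WT or library 3 of PFC WT (-0.40 each).

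Genes of cerebellar granule and Purkinje cells, chosen after their values were seen, were present in vMB WT. Cbln1, a synapse organiser of granule cells, read 573, 257, 483 and 489 in vMB WT and 48.6, 65, 29.2 and 24.4 in PFC WT, and its partner Cbln3 read 85.8, 28, 185 and 64.3 in vMB WT and 3.1, 6.32, 3.79 and 10 in PFC WT. Library 2 of vMB WT was the lowest in both. The Purkinje gene Pcp2 read 65.3, 13.9, 63.4 and 12.7 in vMB WT and 1.47, 4.6, 4.41 and 1.76 in PFC WT.

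A pair of symbols, also chosen after their values were seen, stood in the table under more than 1 identifier with values that traded places between libraries. Sowahc (ENSMUSG00000098188) read 113, 97.5, 132 and 16.1 in vMB WT and 75.3, 1.13, 98.5 and 0 in PFC WT, while its other identifier (ENSMUSG00000071286) read 0, 0, 0 and 102 in vMB WT and 0, 84.8, 0 and 74.3 in PFC WT. Fam220a (ENSMUSG00000083012) read 106, 102, 276 and 259.9 in vMB WT and 314, 263, 168 and 192 in PFC WT, while its other identifier (ENSMUSG00000048910) read 227, 223, 27.1 and 0 in vMB WT and 0, 4.55, 141 and 181 in PFC WT. In Sowahc the identifier that was low in library 4 of vMB WT and in libraries 2 and 4 of PFC WT was replaced by the other in each of these libraries. The split does not follow the regions. Sowahc (ENSMUSG00000098188) was called higher without library 1 of PFC WT (3.57) or library 3 of PFC WT (3.70), and passed neither way with all libraries.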
